A study of Mus musculus with 12 samples.

Results

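In bone marrow-derived macrophages, the difference between *Mirc11-/-* and wildtype was called unequal in M1 and M2 for 188 genes. The quantity studied here is the interaction of genotype and polarization, that is, the *Mirc11-/-* minus wildtype difference in M1 less the same difference in M2. It was estimated for 10137 genes of the 23863 in the table, those with a mean of at least 1 FPKM (fragments per kilobase of transcript, scaled to the mapped fragments of the library) over 12 libraries. An interaction above 0 means that *Mirc11-/-* lay further above wildtype, or less far below it, in M1 than in M2. All differences are on the log2(FPKM + 1) scale, which flattens effects where a gene is close to 0.

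Macrophages were grown from bone marrow of wildtype (Wt) and *Mirc11-/-* (Ako) C57BL/6 mice aged 6 to 8 weeks. Mirc11, also called mirn23a, encodes miR-23a, miR-27a and miR-24-2. Cells of both genotypes spent 7 days in medium conditioned by L929 cells, a source of M-CSF, and were then polarized for 24 h. M1 groups received 100 ng/ml LPS with IFNγ, for which one label field gives 50 ng/ml and another 10 ng/ml. M2 groups received 20 ng/ml IL-4 and 20 ng/ml IL-13. Each of the 4 groups (Wt M1, Ako M1, Wt M2, Ako M2) had 3 libraries. The titles give an M1 and an M2 library to each of Wt2260, Wt2261, Wt2262, Ako2271, Ako2272 and Ako2273. What these numbers stand for is not given, so p-values measure the spread between these samples, which may be technical, and genotype cannot be told apart from anything else that the numbers mark. All 12 cultures were stimulated. In bulk RNA, fewer cells in a given state and less RNA per cell cannot be told apart.

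For 6 of the 12 libraries the title and the treatment field name opposite polarizations. Groups follow the titles: *Nos2*, the inducible nitric oxide synthase, ranged from 938 to 1630 FPKM where the title says M1 and from 0.802 to 2.26 FPKM where it says M2, and the mannose receptor gene *Mrc1* lay between 0.123 and 0.403 FPKM in M1 and between 230.0 and 301 FPKM in M2. Grouped by the treatment field, limma called 0 genes, with 446 at an unadjusted p under 0.05. The depth of the libraries, read from the smallest steps between low values, was 0.794 to 1.27 times that of the Wt2260M1 library. Absolute depth is unknown. Of the precursor genes, *Mir27a* had a value above 0 in a single library, Wt2261M1, and *Mir23a* and *Mir24-2* had none, so this table gives no check of the deletion itself. The 10 macrophage markers summed to 12500 to 15600 FPKM in the 12 libraries. Of 8 lists of markers of other cells, erythroid markers summed to at most 0.176 FPKM in any library. Stromal cell markers summed to 0.556 to 0.823 FPKM in Wt M1 and 1.28 to 2.2 in Ako M1, without overlap, and to 0.118 to 0.279 in Wt M2 and 0.203 to 2.25 in Ako M2. B cell markers, of which *Pax5* was listed at 0 throughout, summed to 52.2 to 57.2 FPKM in Wt M1, 45.1 to 48.6 in Ako M1, 69.1 to 75.3 in Wt M2 and 60.2 to 61.9 in Ako M2, nearly all from *Blnk*, which macrophages also express. T and NK cell markers summed to 1.51 to 3.29 FPKM in M1 and to 11.8 to 13.2 in Wt M2 and 7.16 to 10.4 in Ako M2, mostly from *Cd4*. Endothelial markers were also apart in M1, at 10.2 to 12 FPKM in Wt and 13.7 to 16.4 in Ako, and overlapped in M2, at 13.5 to 14.9 in Wt and 14.6 to 16.6 in Ako. Mast cell markers overlapped in both states, at 3.4 to 4.32 FPKM in Wt M1, 3.06 to 3.62 in Ako M1, 1.18 to 2.06 in Wt M2 and 1.59 to 1.9 in Ako M2. The mast cell markers *Mcpt4* and *Tpsb2* and the endothelial markers *Cldn5* and *Emcn* were listed at 0 throughout. The part of such cells in the results was not tested. *Lcn2*, which macrophages also make after LPS, held 96.7% of the summed neutrophil markers, and *Bst2*, an interferon-induced gene, held 99.1% of the dendritic cell sum, which was 1010 to 1270 FPKM in Wt M1, 1350 to 1500 in Ako M1, 642 to 1150 in Wt M2 and 799 to 996 in Ako M2.

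M1 and M2 name the ends of a range of macrophage states. LPS and IFNγ act in part through NF-kB and raise nitric oxide synthase, cytokines and antigen presentation. IL-4 and IL-13 act through STAT6 and raise arginase 1, lectins such as *Mrc1* and *Clec10a*, and enzymes of lipid use. MicroRNAs lower target mRNAs mainly through pairing of their seed, bases 2 to 8, with sites in 3' UTRs. The cluster lies on chromosome 8, and the mature microRNAs that it encodes are shown with the seed in capitals, as given by RefSeq on GRCm38.p6:
miR-23a-3p: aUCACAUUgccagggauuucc
miR-27a-3p: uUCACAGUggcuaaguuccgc
miR-24-3p: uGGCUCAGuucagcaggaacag
The seeds of miR-23a and miR-27a share their first 5 bases, and that of miR-24 is unrelated.

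Of the 10137 genes, 188 (1.85%) passed an adjusted p of 0.05 for the interaction in limma. The interaction was above 0 for 95 (0.937%) and below 0 for 93 (0.917%), and 1443 genes (14.2%) had an unadjusted p under 0.05. Called interactions ranged in size from 0.28 to 2.04, with a median of 0.572, against a median size of 0.0888 and a median standard error of 0.0979 over all genes. A size of 1 or more was reached by 24 called genes, 10 above and 14 below 0. In 138 called genes the deletion effect was larger in M1 and in 50 it was larger in M2. The effect passed the threshold in M1 but not in M2 for 124 called genes, and in M2 but not in M1 for 38. It passed in both with opposite signs for 11, in both with the same sign for 11, and in neither for *Fgr*, *Homer3*, *Ifitm1* and *Vmp1*, which are named after their values were seen. Over all genes the effect passed in M1 for 13.9% and in M2 for 4.59%. With median-of-ratios scaling 120 of 193 calls (62.2%) were above 0, against 50.5% here.

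**Figure D1:**
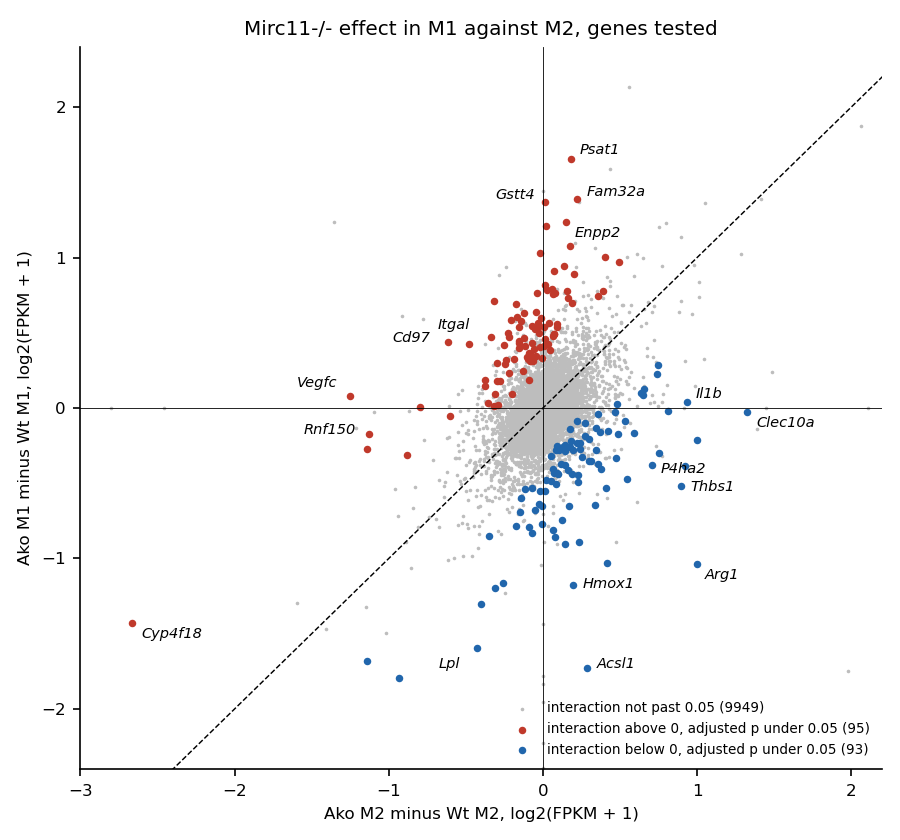
*Mirc11-/-* minus wildtype difference in M1 (vertical axis) against that in M2 (horizontal axis), both on the log2(FPKM + 1) scale, for the genes tested; the dashed line marks equal effects, and 11 genes that were not called lie outside the axes. The 95 genes with a called interaction above 0 lie above the line and the 93 below 0 lie under it.

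The M1 minus M2 difference within each title number gives the same contrast with 1 value per number. The 3 Ako values did not overlap the 3 Wt values for any of the 188 called genes, which follows largely from the call. Over all genes, 2004 (19.8%) were apart in this way. Of the called genes, 69 passed in each of the 12 fits that left out 1 library, and *Ptpn7* passed in none. The number of calls fell to 79 without Ako2272M1, 81 without Wt2260M2, 100 without Ako2271M2, 113 without Ako2271M1 and 125 without Wt2261M1, and rose to 292 without Wt2262M1. The other 6 such fits gave 132 to 204. With both libraries of a title number left out, the count ran from 23 (without Ako2271) to 197 (without Wt2262).

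Genes of lipid handling and heme breakdown were among the largest interactions below 0. *Acsl1*, which activates long-chain fatty acids to acyl-CoA, stood at 429, 484 and 360 FPKM in Wt M1 and at 127, 115 and 138 FPKM in Ako M1. Its M2 libraries gave 27.0, 28.0 and 26.7 FPKM in Wt and 35.7, 31.9 and 32.9 FPKM in Ako. Groups did not overlap in either state, and the order of the genotypes turned around. *Acsl1* fell in M1 by 1.73 ± 0.10 (SE), and its M2 difference was 0.29 (adjusted p = 0.122). The interaction was -2.02 ± 0.14 with an adjusted p of 5.5e-05, and it passed in every fit with 1 library left out.

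*Hmox1*, heme oxygenase 1, was at 1846, 2044 and 1628 FPKM in Wt M1 and at 724, 797 and 927 FPKM in Ako M1. In M2 it was at 263, 245.5 and 282 FPKM in Wt and at 318, 306 and 281 FPKM in Ako, where the genotypes overlapped. The fall in M1 was 1.17 ± 0.10 and the interaction -1.37 ± 0.15 (adjusted p = 0.0013). *Lpl*, the lipoprotein lipase that releases fatty acids from triglycerides, went from 39.1 ± 5.33 (SD, n = 3) to 12.3 ± 2.19 FPKM in M1. It was far more abundant in M2, at 1081 ± 62.4 FPKM in Wt and 805 ± 66.0 FPKM in Ako. The M1 effect was -1.60 ± 0.12 and the M2 effect -0.43 (adjusted p = 0.064), which left an interaction of -1.17 ± 0.17 (adjusted p = 0.0062). All 3 genes lie on chromosome 8. Of 28 tested genes of cholesterol export and lipid handling, *Acsl1* and *Lpl* were the 2 called (7.14%, against 1.85% of all genes tested). The median interaction of the list was -0.0469, near the -0.0256 of all genes.

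**Figure D2:**
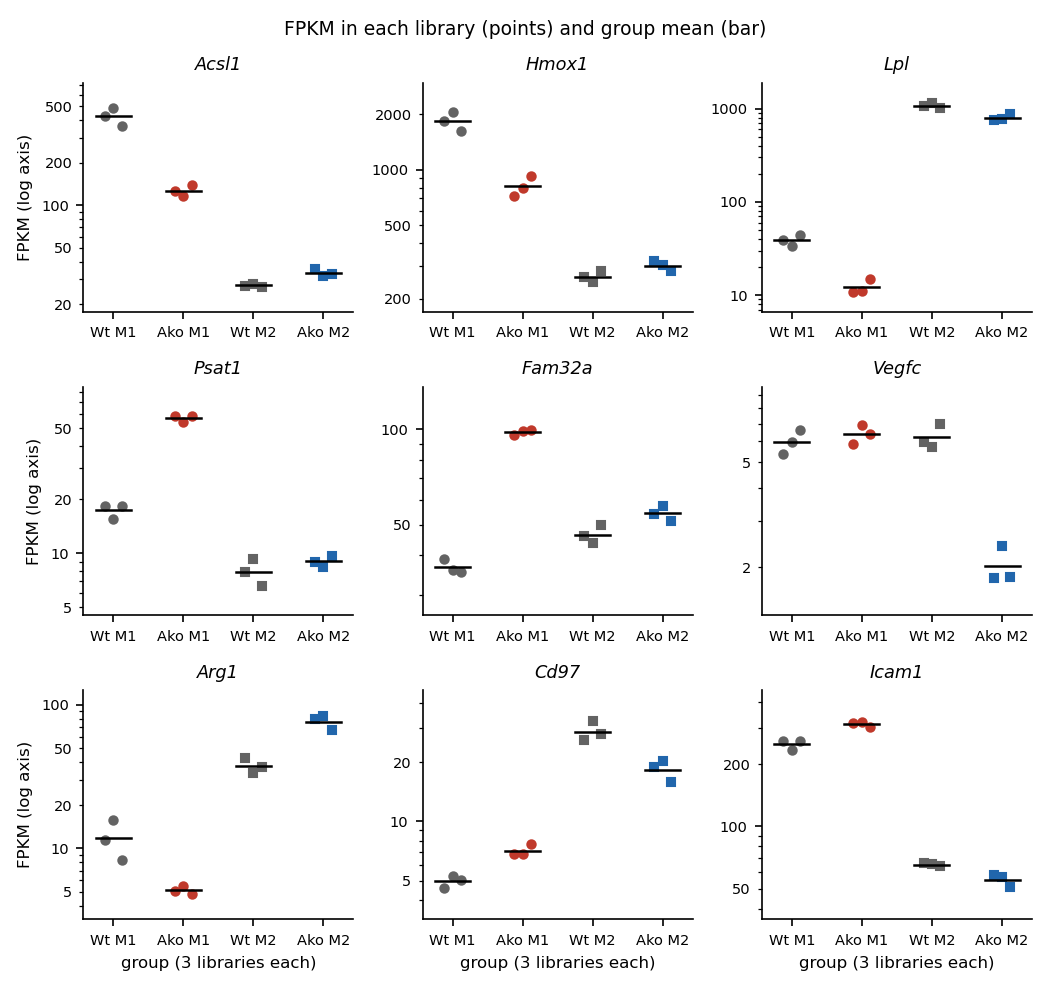
FPKM (vertical log axes) in each of the 12 libraries for 9 genes, by group (horizontal axis); points are libraries and bars are group means. *Acsl1*, *Hmox1*, *Lpl*, *Psat1* and *Fam32a* differ mostly between the M1 groups and *Vegfc* between the M2 groups, while *Arg1*, *Cd97* and *Icam1* differ in opposite directions.

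Arginine metabolism is the textbook axis between both states: arginase 1 turns arginine into ornithine, and *Nos2* turns it into nitric oxide. *Arg1* stood at 11.5, 15.9 and 8.30 FPKM in Wt M1 and at 5.03, 5.48 and 4.84 FPKM in Ako M1. In M2 it stood at 42.6, 33.6 and 36.7 FPKM in Wt and at 79.2, 83.9 and 66.2 FPKM in Ako. The genotypes did not overlap in either state. *Arg1* thus fell in M1 (-1.03 ± 0.17, adjusted p = 0.0027) and rose in M2 (1.00 ± 0.17, adjusted p = 0.0067). The interaction of -2.04 ± 0.24 was the largest of the called genes (adjusted p = 0.0021). *Nos2* fell in M1 from 1476 ± 135 to 1020 ± 74.2 FPKM (adjusted p = 0.027), and stood in M2 at 1.06 ± 0.295 FPKM in Wt and 1.75 ± 0.560 FPKM in Ako. Its interaction was -0.94 ± 0.20 (adjusted p = 0.034). The call for *Nos2* held in 3 of 12 fits with 1 library left out, with an adjusted p of up to 0.089 without Wt2260M2, and it was lost with a pseudocount of 0.1 (adjusted p = 0.072). The other 14 of 16 tested genes of arginine and polyamine metabolism were not called. *Arg1* and *Nos2* made up 12.5% of that list, against 1.85% of all genes tested that were called.

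*Psat1*, the phosphoserine aminotransferase of serine synthesis, had the largest called interaction above 0 among genes with no group listed at 0. It was at 18.4, 15.5 and 18.4 FPKM in Wt M1 and at 58.55, 53.9 and 58.7 FPKM in Ako M1. The M2 libraries overlapped, at 6.53 to 9.31 FPKM in Wt and 8.39 to 9.66 FPKM in Ako. The rise in M1 was 1.66 ± 0.10 and the interaction 1.48 ± 0.14 (adjusted p = 0.0010). *Sesn2*, a stress-induced inhibitor of mTORC1 and like *Psat1* a known target of ATF4, rose in both states but further in M2, from 6.70 ± 0.590 to 11.8 ± 0.818 FPKM, than in M1, from 14.0 ± 0.148 to 16.6 ± 0.677 FPKM. Its interaction was -0.51 ± 0.09 (adjusted p = 0.015). The 19 tested genes of serine, one-carbon and ATF4 responses thus held 1 call in each direction, and their median interaction was 0.00178. Together the calls were 10.5% of this list, against 1.85% of all genes tested.

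Several genes of chromosome 8 had interactions above 0. *Fam32a*, a little-studied nuclear protein gene, rose in M1 from 36.9 ± 1.96 to 98.0 ± 2.09 FPKM and was at 46.5 ± 3.07 FPKM in Wt M2 and 54.3 ± 2.93 FPKM in Ako M2. Its interaction was 1.17 ± 0.09 (adjusted p = 6.3e-05). *Vegfc*, a growth factor for lymphatic vessels, was alike in Wt M1, Ako M1 and Wt M2, with group means of 5.99 to 6.38 FPKM, and lower only in Ako M2, at 1.83, 2.41 and 1.85 FPKM. The fall of *Vegfc* in M2 was 1.25 on the log2 scale, and the interaction was 1.33 ± 0.13 (adjusted p = 0.0011). *Rnf150*, a RING finger gene, fell in M2 from 5.16 ± 0.329 to 1.82 ± 0.342 FPKM and was under 0.32 FPKM in each M1 library (interaction 0.96, adjusted p = 0.0021). *Il27ra*, the IL-27 receptor subunit, likewise fell in M2 from 4.17 to 2.404 FPKM and was under 0.11 FPKM throughout M1 (interaction 0.55, adjusted p = 0.0078).

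On the log2(FPKM + 1) scale a gene near 0 in 1 state can differ only little there. With a pseudocount of 0.1 the calls for *Rnf150* (adjusted p = 0.078) and *Il27ra* (adjusted p = 0.51) were lost. *Cyp4f18*, a fatty acid hydroxylase of myeloid cells, went from 1.94 ± 0.383 to 0.0847 ± 0.0261 FPKM in M1 and from 7.13 ± 1.03 to 0.272 ± 0.0374 FPKM in M2. It fell in both states, and its interaction of 1.24 ± 0.15 (adjusted p = 0.0021) was 0.82 with an adjusted p of 0.15 at a pseudocount of 0.1. Of the 188 called genes, 84 (44.7%) had a mean under 5 FPKM in at least 1 state, against 36.2% of all genes tested. Among genes with a mean of at least 5 FPKM in each state, 103 of 6471 were called, and all 103 are among the 188.

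Chromosome 8, which carries the deleted cluster, held 23 of the 187 called genes with a known chromosome. That was 4.13% of its 557 tested genes, against 1.85% over all chromosomes and 0.769% to 2.59% on the others. Of the 23, 15 were above and 8 below 0. The 24 genes with the largest interactions (12 in each direction) were taken from called genes with no group listed at 0. Of the 24, 8 (33.3%) lie on chromosome 8, which holds 5.52% of tested genes. These are *Acsl1*, *Hmox1* and *Lpl* below 0, and *Vegfc*, *Cyp4f18*, *Fam32a*, *Cd97* and *Rnf150* above 0. In the gene order of RefSeq GRCm38.p6, the 50 tested genes on either side of the cluster held 8 calls (8.0%), and the other 457 genes of the chromosome held 15 (3.28%). Of the 11 called genes whose effects passed the threshold in both states with the same sign, 8 were on chromosome 8. *Mfap3l* was among them, at 4.36, 5.22 and 4.46 FPKM in Wt M1 and 0.730, 0.5425 and 0.640 FPKM in Ako M1, and at 3.53 ± 0.158 and 1.38 ± 0.233 FPKM in Wt M2 and Ako M2. Its fall was larger in M1 (interaction -0.86, adjusted p = 0.0048).

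**Figure D3:**
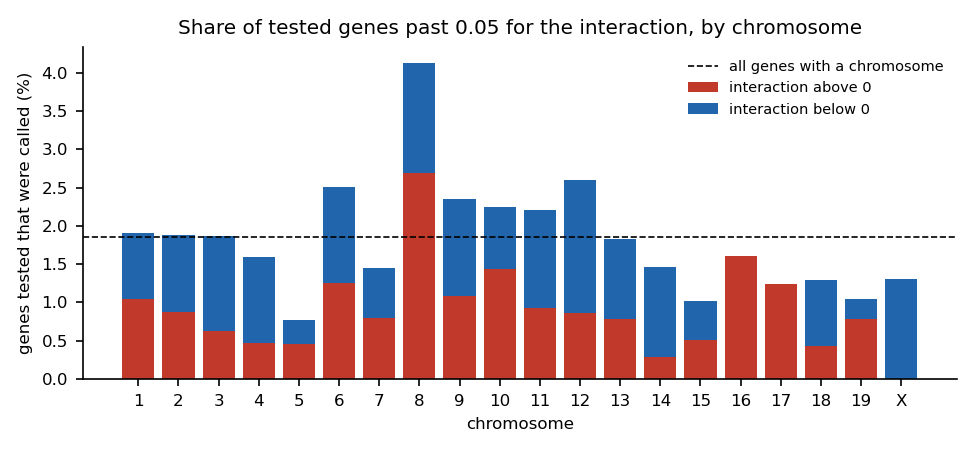
Percent of tested genes called for the interaction (vertical axis) on each chromosome (horizontal axis), split into interactions above 0 (red) and below 0 (blue); the dashed line is the 1.85% of all genes with a known chromosome. Chromosome 8 stands at 4.13% and the others at 0.769% to 2.59%.

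In 11 genes (0.109% of those tested) the deletion effect passed the threshold in both states with opposite signs. Each of the 11 was called for the interaction, which follows largely from this, since the interaction is the difference of both effects. *Arg1*, *Pcbp4*, *Cyb5a*, *Tnfrsf23*, *Slc30a1* and *Ppfibp2* fell in M1 and rose in M2. *Cd97*, *Itgal*, *Igfbp4*, *Rasgef1b* and *Icam1* rose in M1 and fell in M2. *Cd97*, the adhesion receptor of leukocytes now named *Adgre5*, was at 4.56, 5.28 and 5.04 FPKM in Wt M1, 6.84, 6.802 and 7.65 FPKM in Ako M1, 25.9, 32.45 and 27.8 FPKM in Wt M2 and 18.9, 20.2 and 16.0 FPKM in Ako M2. The genotypes were apart in both states (interaction 1.06 ± 0.13, adjusted p = 0.0028). *Itgal*, the alpha subunit of the integrin LFA-1, went from 268 ± 23.5 to 360 ± 16.5 FPKM in M1 and from 50.8 ± 0.723 to 36.3 ± 4.79 FPKM in M2 (interaction 0.91, adjusted p = 0.0045). *Icam1*, the ligand of LFA-1, moved the same way, from 251 ± 14.0 to 314 ± 8.29 FPKM and from 65.3 ± 1.10 to 55.2 ± 3.99 FPKM (interaction 0.56, adjusted p = 0.0085).

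Among the other opposite genes, *Igfbp4*, an IGF binding protein, had an interaction of 0.81 (adjusted p = 0.0081), and *Rasgef1b*, a Ras family exchange factor induced by Toll-like receptors, one of 0.67 (adjusted p = 0.0013). On the other side, *Pcbp4*, an RNA-binding protein gene, was at -0.78 (adjusted p = 0.0061) with group means of 1.04 to 2.15 FPKM. *Cyb5a*, cytochrome b5, was at -0.73 (adjusted p = 0.014), and *Slc30a1*, a zinc exporter, at -0.51 (adjusted p = 0.011). *Ppfibp2*, a liprin gene, was at -0.51 (adjusted p = 0.013). *Tnfrsf23*, a decoy TRAIL receptor of mice, was at -0.62 (adjusted p = 0.016), with an adjusted p of 0.050 without Wt2260M2, the 1 fit with a library left out in which a gene among the 11 lost its call.

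**Figure D4:**
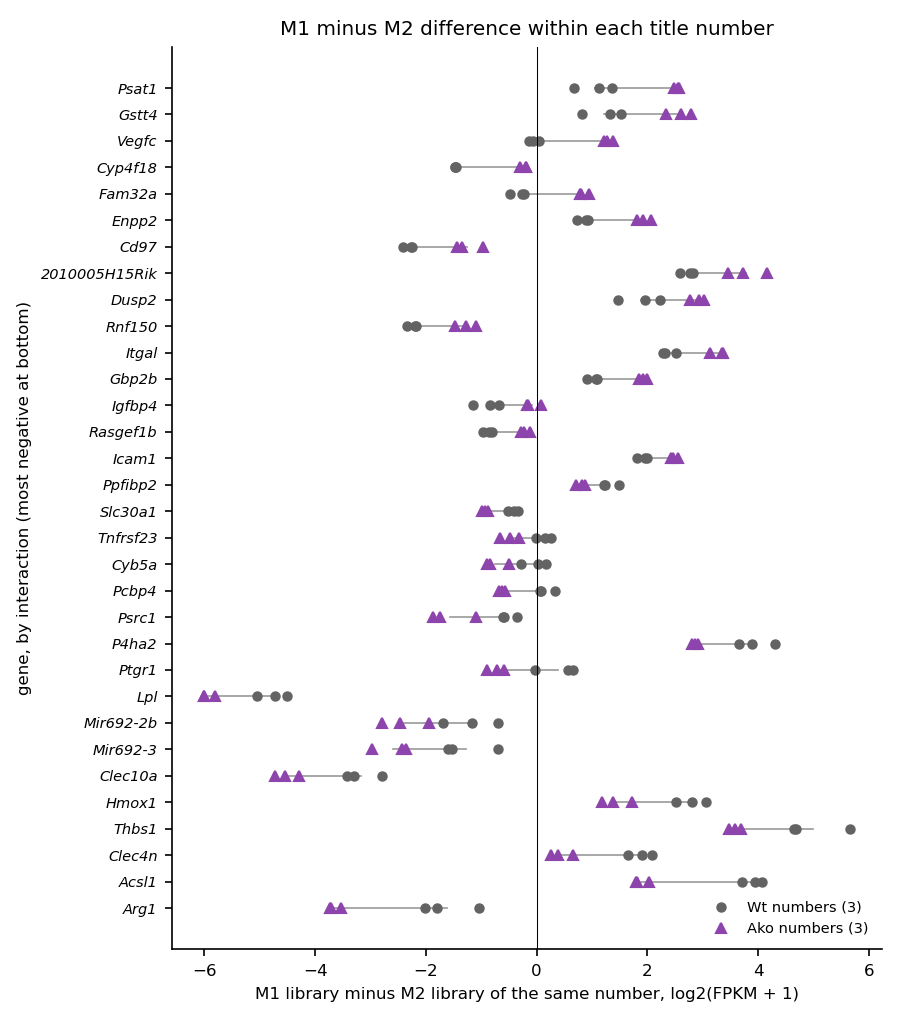
M1 minus M2 difference in log2(FPKM + 1) within each title number (horizontal axis) for the genes with the largest interactions and the genes with opposite effects (vertical axis, ordered by interaction); circles are the 3 Wt and triangles the 3 Ako numbers, and the line joins the 2 means. In each gene the triangles lie to 1 side of the circles, for example at -3.73, -3.71 and -3.53 against -1.80, -1.03 and -2.02 for *Arg1*. This was a condition for choosing the genes with the largest interactions, and for the others it follows largely from the call.

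The lectin receptors that were called all had interactions below 0. *Clec10a*, a galactose-type lectin raised by IL-4, was under 0.14 FPKM in each M1 library. In M2 it was at 10.2, 6.29 and 10.7 FPKM in Wt and at 23.9, 26.7 and 20.7 FPKM in Ako. Its rise in M2 was 1.32 ± 0.15 and its interaction -1.35 ± 0.21 (adjusted p = 0.0086). *Clec4n* (Dectin-2) fell in M1 from 151.9 to 70.7 FPKM, with an interaction of -1.45 ± 0.32 (adjusted p = 0.041), and *Clec4d*, its partner in fungal recognition, fell in M1 from 381 to 270 FPKM, with an interaction of -0.72 ± 0.13 (adjusted p = 0.018). *Colec12*, a scavenger lectin, rose in M2 from 7.66 to 10.2 FPKM (interaction -0.53, adjusted p = 0.034, but 0.060 with a pseudocount of 0.1). The call held in 2 of the 12 fits that omitted a library for *Clec4n*, 10 for *Clec4d* and 4 for *Colec12*, with adjusted p of up to 0.12 (without Ako2272M1), 0.060 (without Ako2272M1) and 0.097 (without Ako2271M2). These were the 4 calls among 21 tested scavenger and lectin receptors (19.0%), against 1.85% of all genes tested. The median interaction of the list, which was chosen with earlier results of these data known, was -0.286.

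*Retnla*, a secreted product of IL-4-treated macrophages, was listed at 0 in the 6 M1 libraries. It rose in M2, where it was at 86.7, 38.4 and 65.7 FPKM in Wt and 212, 177 and 123 FPKM in Ako, and its interaction missed the threshold (-1.45, adjusted p = 0.055). An exact 0 in this table can be a failed estimate, since the ferritin gene *Fth1* was also listed at 0 in the M1 libraries. *Chil3* (-0.62, adjusted p = 0.36) and *Mrc1* (-0.27, adjusted p = 0.35) did not pass either. Of 26 tested M2 markers, *Arg1* and *Clec10a* were called below 0 and *Il27ra* above 0. Of 30 M1 markers, *Nos2* and *Il1b* were called below 0 and *Ido1* above 0. That was 11.5% of the M2 and 10.0% of the M1 markers, against 1.85% of all genes tested. Both lists were chosen with earlier results of these data known, so the higher shares carry no test.

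*Il1b* was as high in Ako M1 (1718 ± 216 FPKM) as in Wt M1 (1667 ± 110 FPKM) within the spread of the libraries, and its interaction came from M2. There it was at 3.67, 2.70 and 3.64 FPKM in Wt and at 7.67, 8.21 and 5.97 FPKM in Ako, without overlap. The rise in M2 was 0.93 ± 0.12 and the interaction -0.89 ± 0.18 (adjusted p = 0.025). The call held in 6 of 12 fits with 1 library left out, with an adjusted p of up to 0.081 without Ako2271M2. *Ccl5*, a chemokine, likewise rose in M2 from 346 to 681 FPKM, with an interaction that missed the threshold (-0.84, adjusted p = 0.075). Other cytokine genes of the M1 state were not called: the interaction was 0.13 for *Il6* (adjusted p = 0.83), 0.13 for *Il12b* (adjusted p = 0.90) and -0.0032 for *Cxcl10* (adjusted p = 1.0), and their M2 means lay between 0.0614 and 2.68 FPKM in both genotypes. *Il18*, a cytokine of the IL-1 family, went the other way. It rose in M1 from 9.59 to 12.2 FPKM, with an interaction of 0.51 ± 0.10 (adjusted p = 0.024), which held in 5 of 12 fits with 1 library left out, with an adjusted p of up to 0.078 without Ako2272M1.

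*Dusp2*, *Tnip3*, *Dusp1* and *Nfkb2*, known as feedback genes of NF-kB or MAP kinase signalling, were called above 0. *Dusp2*, a phosphatase of ERK and p38, rose in M1 from 23.15 ± 5.45 to 37.8 ± 1.35 FPKM and was at 5.46 and 4.175 FPKM in Wt M2 and Ako M2 (interaction 1.03 ± 0.17, adjusted p = 0.013). *Tnip3*, an inhibitor of NF-kB induced by LPS, rose in M1 from 39.8 to 59.4 FPKM and was at 36.6 and 37.6 FPKM in M2 (interaction 0.53 ± 0.09, adjusted p = 0.013). *Dusp1*, a MAP kinase phosphatase, had an interaction of 0.55 ± 0.11 (adjusted p = 0.022), and *Nfkb2*, which encodes p100, one of 0.34 ± 0.07 (adjusted p = 0.032). *Dusp1* kept its call in 7 and *Nfkb2* in 2 of the 12 fits that omitted a library, with adjusted p of up to 0.070 and 0.095, both without Ako2272M1. Among 27 tested NF-kB subunits and negative regulators, whose median interaction was 0.191, there were 3 calls above 0 and 0 below. These 3 were *Dusp1*, *Nfkb2* and *Tnip3* (11.1%), against 1.85% of all genes tested that were called. The list was chosen with earlier results of these data known. *Dusp1* and *Dusp2* were also the 2 calls among 24 tested immediate early genes (8.33%). *Il1b*, *Il18* and *Vegfc* were the 3 among 36 tested cytokines and receptors (8.33%). At an unadjusted p under 0.05, 12 of the 27 (44.4%) passed, against 14.2% of all genes tested. *Tnf* (0.38, adjusted p = 0.061) and *Tnfaip3* (0.41, adjusted p = 0.18), which encodes the ubiquitin-editing protein A20, missed the threshold.

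Genes of the antioxidant NRF2 response were called mostly below 0. Besides *Hmox1*, these were *Gclc*, the catalytic subunit of glutathione synthesis (-0.67, adjusted p = 0.033), and *Cat*, catalase (-0.58, adjusted p = 0.040, but 0.051 with median-of-ratios scaling). *Gstt4*, a glutathione transferase gene, was called above 0 (1.35, adjusted p = 0.011). It rose in M1 from 1.47 to 5.24 FPKM and was under 0.10 FPKM in each M2 library, and its call was lost with a pseudocount of 0.1 (adjusted p = 0.099). *Gclc* kept its call in 4 and *Cat* in 1 of 12 fits with a library left out; for *Gclc* the adjusted p reached 0.098 without Ako2272M1. Of 25 tested list members 20 were below 0, and the median interaction was -0.206. The called members were 16.0% of the list, which was chosen with earlier results of these data known, against 1.85% of all genes tested. *Ptgr1*, a reductase of prostaglandins and leukotrienes outside the list, fell in M1 from 19.9 to 9.93 FPKM (interaction -1.13 ± 0.24, adjusted p = 0.038), a call kept in 2 of 12 such fits, with an adjusted p of up to 0.11 without Ako2272M1. *Gstt4* shares sequence with *Gstt2*, so reads of the pair may have been split between them.

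Adhesion and matrix genes were called in both directions. *Thbs1*, the secreted adhesive glycoprotein thrombospondin 1, stood at 90.7, 174 and 98.5 FPKM in Wt M1 and at 81.9, 71.5 and 89.5 FPKM in Ako M1. Wt2261M1 stood far above the others, and the highest Ako library was just below the lowest Wt library, with an M1 effect of -0.52 (adjusted p = 0.097). In M2 it rose from 2.67 ± 0.205 to 5.845 ± 0.715 FPKM. Its interaction was -1.42 ± 0.27 (adjusted p = 0.022), kept in 6 of 12 fits with a library left out, with an adjusted p of up to 0.072 without Ako2271M2. *P4ha2*, a prolyl hydroxylase of collagen, rose in M2 from 1.42 to 2.945 FPKM and was at 36.5 and 27.7 FPKM in Wt M1 and Ako M1 (interaction -1.09 ± 0.18, adjusted p = 0.013). *Mmp14*, a membrane-bound matrix protease, fell in M2 from 135 to 109 FPKM (interaction 0.41, adjusted p = 0.042), kept in 2 of the 12 fits and with an adjusted p of up to 0.12 without Ako2272M1. *Itga5*, the alpha subunit of the fibronectin receptor, was called above 0 (0.46, adjusted p = 0.029, called in 2 of the 12 fits). With *Itgal* and *Icam1*, 3 of 22 tested integrins and adhesion molecules were called above 0, and *Thbs1* was called below 0. Over all genes tested, 0.937% were called above 0 and 0.917% below 0. This list, too, was chosen with earlier results of these data known.

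*Enpp2*, which encodes the lysophosphatidic acid-making enzyme autotaxin, rose in M1 from 0.880 to 3.42 FPKM and stayed under 0.24 FPKM in M2 (interaction 1.09 ± 0.11, adjusted p = 0.0012). *Gbp2b*, an interferon-induced GTPase gene, rose in M1 from 1.43 to 4.11 FPKM (interaction 0.90 ± 0.11, adjusted p = 0.0025). *Ido1*, which breaks down tryptophan, rose in M1 from 2.17 to 4.57 FPKM (interaction 0.80 ± 0.14, adjusted p = 0.016). In M2, the group means of these 3 genes were at or under 0.349 FPKM, and each call was lost with a pseudocount of 0.1, with adjusted p of 0.24, 0.095 and 0.29. *2010005H15Rik*, a gene of the stefin A family, rose in M1 from 6.22 to 14.1 FPKM (interaction 1.05 ± 0.22, adjusted p = 0.032). This call was lost with that pseudocount (adjusted p = 0.30) and held in 3 of 12 fits with a library left out, with an adjusted p of up to 0.097 without Ako2272M1. *Gbp2b* and *2010005H15Rik* have close paralogs, between which reads may have been split.

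*Psrc1*, a spindle protein gene, rose in M2 from 3.39 to 6.315 FPKM and stood at 2.04 and 1.496 FPKM in M1 (interaction -1.05 ± 0.24, adjusted p = 0.046). *Mir692-3* and *Mir692-2b*, near-identical microRNA loci, rose in M2 from 161 to 303 FPKM and from 171 to 339 FPKM, with interactions of -1.31 ± 0.29 and -1.21 ± 0.28 (adjusted p = 0.043 and 0.049). Reads of these copies cannot be told apart. FPKM are scaled per kilobase, so a short locus can reach a high value on few fragments. *Mir27a*, for example, was at 101.5 FPKM in Wt2261M1 and at 0 in every other library. The number of fragments behind the *Mir692* values is unknown. With 1 library left out, *Psrc1*, *Mir692-3* and *Mir692-2b* kept their calls in 2, 2 and 1 of 12 fits, with adjusted p of up to 0.12 for each, all without Ako2272M1. Median-of-ratios scaling ended the 3 calls (adjusted p = 0.051, 0.051 and 0.060), and a pseudocount of 0.1 ended those of *Psrc1* (0.064) and *Mir692-2b* (0.054). *Inpp4b*, a phosphoinositide phosphatase gene that limits Akt signalling, rose in M1 from 0.683 to 1.85 FPKM (0.69, adjusted p = 0.045; 1 of 12 fits; adjusted p = 0.13 without Ako2272M1, and 0.062 with a pseudocount of 0.1). *Cish*, a STAT-induced feedback inhibitor, fell in M1 from 2.99 to 2.396 FPKM (-0.45, adjusted p = 0.043; 2 of 12 fits; adjusted p = 0.12 without Ako2271M2, and 0.051 with median-of-ratios scaling). *Inpp4b* and *Sesn2* were the 2 calls among 18 tested limiters of PI3K signalling and FoxO factors (11.1%). *Cish* was the 1 among 19 genes of STAT6 and STAT3 signalling (5.26%). *Mmp14* was the 1 among 21 matrix proteases and inhibitors (4.76%). Of all genes tested, 1.85% were called.

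In 16 of 31 gene lists at least 1 member was called, and in the other 15 none was, among their 347 tested entries, of which 53 (15.3%) had an unadjusted p under 0.05 in limma, near the 14.2% of all genes tested. Lists without a call included the type I interferon response (0 of 35, with 0 at that p and a median interaction of 0.00568), MHC class I presentation (0 of 19, also 0 at that p) and ribosomal proteins (0 of 35, also 0 at that p). Chemokines (20 tested, 6 at that p), chemokine receptors (12, 4), Toll-like receptors and adaptors (28, 4), the TCA cycle and respiratory chain (32, 3), the unfolded protein response (25, 2), the lysosome (32, 1), and Fc receptors and complement (15, 2) had 0 calls as well. Interferon gamma induced GTPases were below 0 in 16 of 16 members with a median of -0.196, and 3 had an unadjusted p under 0.05; *Gbp2b*, called above 0, is not in this list. MHC class II genes were below 0 in 11 of 12 (median -0.298, 2 at that p) and glycolysis genes in 18 of 22 (median -0.181, 7 at that p). Cholesterol synthesis genes were above 0 in 22 of 24 (median 0.181, 7 at that p) and DNA replication and mitosis genes in 14 of 20 (median 0.215, 12 at that p). Over all genes the median interaction was -0.0256, and 4225 of 10137 were above 0. These counts describe the 12 libraries and carry no test. *Stat6* (0.00011, adjusted p = 1.0), which carries the IL-4 and IL-13 signal, and *Il10*, an anti-inflammatory cytokine (0.26, adjusted p = 0.68) did not pass.

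**Figure D5:**
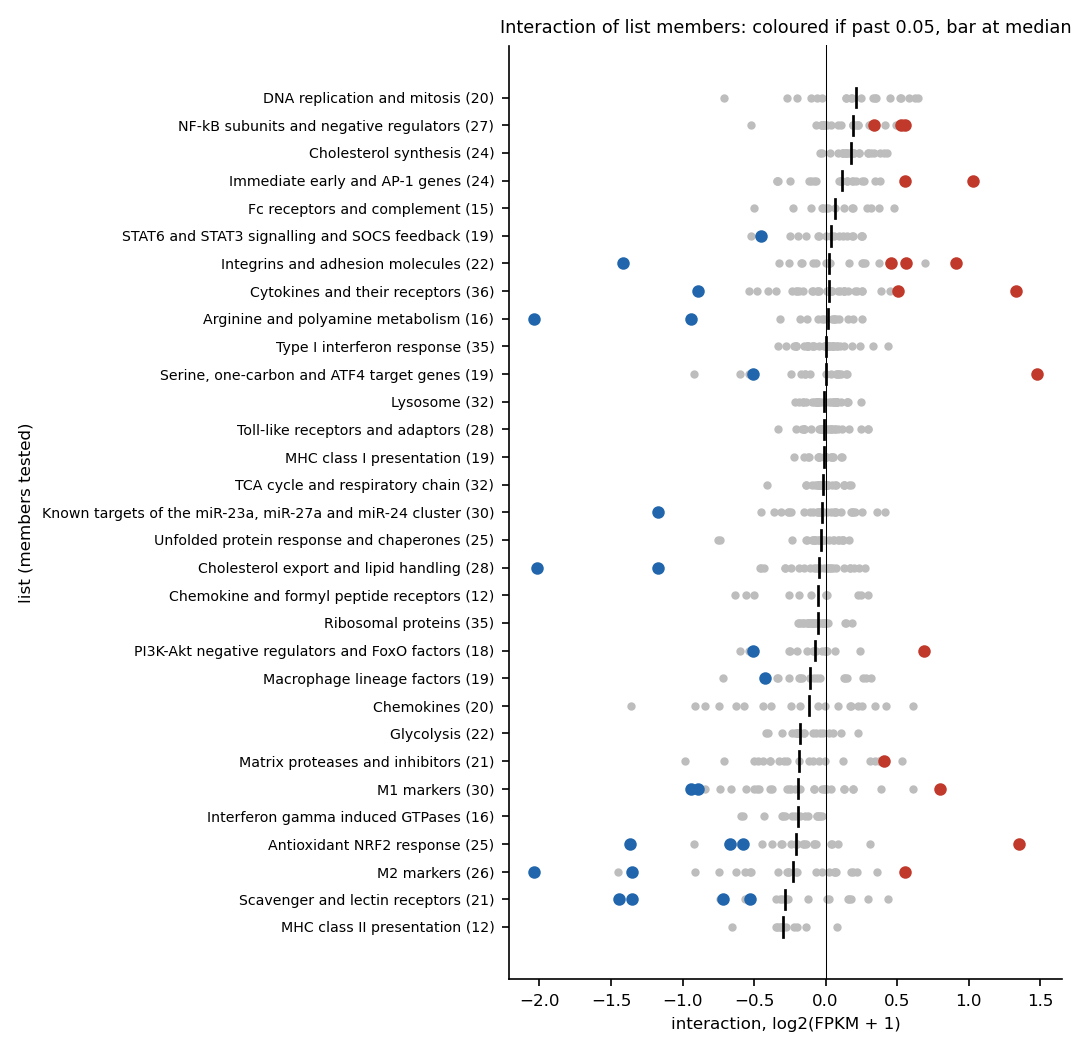
Interaction on the log2(FPKM + 1) scale (horizontal axis) of each tested member of 31 gene lists (vertical axis, with the number tested), ordered by median; grey points did not pass an adjusted p of 0.05, red points passed above 0, blue points passed below 0, and black bars are list medians. Medians run from -0.298 for MHC class II presentation to 0.215 for DNA replication and mitosis.

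Of 30 tested genes known as targets of the cluster's microRNAs, *Lpl* was the 1 called (3.33%, against 1.85% of all genes tested), below 0. The median interaction of the list was -0.0247. At an unadjusted p under 0.05 in limma, 10 of the 30 (33.3%) passed, against 14.2% of all genes tested. The list was chosen with earlier results of these data known. *Cblb* and *Itch*, E3 ligases that limit T cell activation, had interactions of 0.19 (adjusted p = 0.68) and -0.02 (adjusted p = 0.96). A match to the seed of at least 1 of the 3 microRNAs (CTGAGCC for miR-24, AATGTGA for miR-23a and ACTGTGA for miR-27a, on the transcript strand) was found in the longest annotated 3' UTR of 3950 of 9784 tested genes (40.4%). The share was 38 of 91 (41.8%) among genes called above 0 and 43 of 89 (48.3%) among those called below 0. The median 3' UTR was 1151, 1061 and 1277 bases long in the 3 sets. These matches are descriptions of the annotated sequence and not sites shown to act.

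Matches in *Lpl*, *Acsl1*, *Hmox1*, *Psat1* and *Vegfc*, all among the genes with the largest interactions, are shown. Each is in capitals with 9 bases before and 6 after, from GENCODE M21 transcripts on GRCm38. Of the genes with the largest interactions, *Rnf150*, *Ptgr1* and *P4ha2* also carry matches, which are not shown. *Lpl* holds a match for each of the 3 microRNAs, at chr8:68906404-68906425, chr8:68906337-68906358 and chr8:68906806-68906827 on the plus strand:
Lpl, miR-23a: tcgtcattcAATGTGAttcaga
Lpl, miR-27a: ggagcagaaACTGTGAaatttg
Lpl, miR-24: tctgtctcaCTGAGCCaactta
*Acsl1* holds 1 for miR-27a (chr8:46535301-46535322, plus strand), *Hmox1* 1 for miR-24 (chr8:75100284-75100305, plus strand) and *Psat1* 1 for miR-27a (chr19:15905265-15905286, minus strand), and *Vegfc* holds 1 for miR-23a (chr8:54186705-54186726, plus strand) and 1 for miR-27a (chr8:54186378-54186399, plus strand):
Acsl1, miR-27a: ccatgctcaACTGTGAcatctc
Hmox1, miR-24: gcagctgttCTGAGCCcagtgc
Psat1, miR-27a: caccctcaaACTGTGAtcacgt
Vegfc, miR-23a: tacttttttAATGTGActaaag
Vegfc, miR-27a: gtaaagctcACTGTGAtcagta
*Acsl1*, which fell in Ako M1, and *Psat1*, which rose there, each hold 1 match to the miR-27a seed. Such a match was found in 1636 of 9784 tested genes (16.7%). Whether any match acts was not tested.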

How the data were processed

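RNA-seq libraries of bone marrow-derived macrophages (miRNeasy RNA, NEBNext Ultra II preparation) were analysed. The authors deposited 1 table of FPKM for 23863 genes in the 12 libraries; the submitters' processing notes name STAR 2.5.1, Cufflinks, DESeq and the build mm9. The annotation, filters and use of strand are not given in the sources used here, so antisense and overlapping genes cannot be told apart. A further pair of deposited tables holds the authors' own fold changes and adjusted p-values per transcript and was not used. FPKM are not counts: absolute depth is unknown, no count test was possible, and the number of libraries limits the precision.

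Genes with a mean of at least 1 FPKM were fitted as log2(FPKM + 1) on 4 group means in limma 3.58.1 (R 4.3.3), with moderated variances and an intensity trend (8 residual and 3.87 prior degrees of freedom). The interaction and both deletion effects are contrasts of this fit, two-sided and Benjamini-Hochberg adjusted over 10137 genes at 0.05. Values are mean ± SD over 3 libraries, or estimate ± SE. Rose, fell and called refer to this threshold. On simulated data with 50 genes shifted at each size, the fit recovered 8% at a log2 interaction of 0.25, 66% at 0.5 and 100% at 1, with 6 false calls among 143.

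Named genes were the 12 per direction with the largest called interaction, no group listed at 0 and genotypes apart within numbers, those with opposite effects, the called members among the 3 with the smallest p of each of 31 lists, and a fixed set (*Nos2*, *Arg1*, *Il1b*, *Il6*, *Il12b*, *Tnf*, *Il10*, *Retnla*, *Chil3*, *Mrc1*, *Clec10a*, *Ccl5*, *Cxcl10*, *Stat6*, *Tnfaip3*, *Cblb*, *Itch*). A pair of genes that this rule also names is not reported here. Any other gene was named after its values were seen. Genes and lists were chosen with earlier results of these data known. Chromosomes (23714 symbols matched), gene order and microRNA sequences come from RefSeq GRCm38.p6 and 3' UTRs from GENCODE M21 on GRCm38, not the build of the table. Alternatives varied the pseudocount, filter, scaling, variance trend, replicate block, libraries and source of the polarization label. Figures were drawn with matplotlib 3.10.9 (Python 3.11.15).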

Additional observations from a re-analysis of the deposited data

Results flagged for a closer look

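Each gene below had a deletion effect that differed between M1 and M2 by the test of the difference itself, the interaction in limma on the log2(FPKM + 1) scale. Since these are the genes described in the report, only the values are repeated, as interactions with the adjusted p given there. Not all calls held with a pseudocount of 0.1. Above 0, it ended those of *Gstt4*, *Cyp4f18*, *Enpp2*, *2010005H15Rik*, *Rnf150*, *Gbp2b*, *Ido1*, *Inpp4b* and *Il27ra*. Below 0, it ended those of *Mir692-2b*, *Psrc1*, *Nos2* and *Colec12*.

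Below 0 and called in each of the 12 fits with 1 library left out were *Arg1* (-2.04), *Acsl1* (-2.02), *Hmox1* (-1.37), *Clec10a* (-1.35), *Lpl* (-1.17), *P4ha2* (-1.09), *Pcbp4* (-0.78), *Cyb5a* (-0.73), *Slc30a1* (-0.51), *Sesn2* (-0.51) and *Ppfibp2* (-0.51). Below 0 and called in some of those fits were *Clec4n* (-1.45), *Thbs1* (-1.42), *Mir692-3* (-1.31), *Mir692-2b* (-1.21), *Ptgr1* (-1.13), *Psrc1* (-1.05), *Nos2* (-0.94), *Il1b* (-0.89), *Clec4d* (-0.72), *Gclc* (-0.67), *Tnfrsf23* (-0.62), *Colec12* (-0.53) and *Cish* (-0.45).

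Above 0 and called in each of the 12 fits were *Psat1* (1.48), *Gstt4* (1.35), *Vegfc* (1.33), *Cyp4f18* (1.24), *Fam32a* (1.17), *Enpp2* (1.09), *Cd97* (1.06), *Dusp2* (1.03), *Rnf150* (0.96), *Itgal* (0.91), *Gbp2b* (0.90), *Igfbp4* (0.81), *Ido1* (0.80), *Rasgef1b* (0.67), *Icam1* (0.56), *Il27ra* (0.55) and *Tnip3* (0.53). Above 0 and called in some of them were *2010005H15Rik* (1.05), *Inpp4b* (0.69), *Dusp1* (0.55), *Il18* (0.51), *Mmp14* (0.41) and *Nfkb2* (0.34).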

How the results depend on the processing

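The count of 188 called genes was 151 with the replicate block, 151 with a pseudocount of 0.1, 228 with a pseudocount of 5, 207 of 17189 without a filter, 122 of 7300 at a mean of at least 5 FPKM, 193 with median-of-ratios scaling, 202 with quantile normalization, 183 without a variance trend, 202 without genes listed at 0 throughout a group, and 58 with the 6 libraries whose labels agree, where the single Wt library of a group is assumed to vary like the others. Shared with the 188 were 114, 142, 174, 133, 122, 168, 158, 180, 186 and 31. A mean of at least 5 FPKM in each state, added after the data were seen, gave 103. By the treatment field 0 were called. With 1 library or 1 number left out the count ran from 23 (without both Ako2271 libraries) to 292, and without those of Wt2260, Wt2261 and Ako2272 it was 38, 69 and 28. The share above 0 was 62.2% with median-of-ratios scaling and 57.9% with quantile normalization against 50.5%, and 32.8% with the 6 libraries. The cause of these changes was not tested.

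No clear pairing of the libraries by title number was seen. Deviations of M1 and M2 from their group means correlated at -0.057, 0.212 and 0.108 for Wt and 0.060, -0.182 and -0.291 for Ako. With 3 libraries per group, such correlations cannot decide what a number stands for. The block kept 39 of the 47 named calls, a pseudocount of 0.1 kept 34, median-of-ratios scaling 43, quantile normalization 39 and the 6 libraries 20. Of their values with 1 library left out, 411 kept the call and 153 did not.

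Grouped by the treatment field, the interaction changed sign for *Nos2* (6.28), *Il1b* (5.41), *Cxcl10* (5.38), *Ccl5* (3.10), *Thbs1* (3.01), *P4ha2* (2.345), *Acsl1* (1.80), *Hmox1* (1.21), *Ppfibp2* (0.82), *Clec4d* (0.72), *Clec4n* (0.60), *Sesn2* (0.39), *Cd97* (-1.40), *Il27ra* (-1.28), *Rnf150* (-0.97), *Cyp4f18* (-0.60), *Cblb* (-0.47), *Igfbp4* (-0.42) and *Rasgef1b* (-0.40), none past the threshold. Among genes not called, *Cxcl10* changed sign with a pseudocount of 0.1 (0.0046), median-of-ratios scaling (0.031) and quantile normalization (1.65e-05), *Itch* with both scalings (0.012 and 0.0081) and the 6 libraries (0.136), and *Stat6* with quantile normalization (-0.013). With a library or number left out, *Cxcl10* ran from -0.188 to 0.247, *Il12b* from -0.115 to 0.335, *Itch* from -0.103 to 0.034 and *Stat6* from -0.034 to 0.043. Without counts, the depth behind a single low FPKM is unknown, and interactions near 0.25 would mostly be missed at this number of libraries.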

Other observations

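The called genes described here were chosen after their values were seen. *Ccng1*, *Zmat3* and *Trp53inp1*, each known as a target of p53, had interactions below 0. *Ccng1*, cyclin G1, was at 39.3, 38.2 and 42.5 FPKM in Wt M2 and at 58.2, 57.8 and 59.2 FPKM in Ako M2, without overlap. In M1 it was at 50.9 ± 1.33 (SD, n = 3) in Wt and 48.0 ± 5.43 FPKM in Ako, and the interaction was -0.62 (adjusted p = 0.010 in limma). *Zmat3*, an RNA-binding protein gene, rose in M2 from 4.075 to 5.81 FPKM (interaction -0.58, adjusted p = 0.022, called in 6 of 12 fits with a library left out). *Trp53inp1*, a stress-response gene, fell in M1 from 3.35 to 2.205 FPKM (interaction -0.68, adjusted p = 0.010). *Sesn2* and *Psrc1*, also known as p53 targets, were called below 0 as well. A list picked in this way carries no test.

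Some called genes above 0, also picked after their values were seen, encode immune signalling proteins. *Lta*, lymphotoxin alpha, rose in M1 from 1.76 to 3.77 FPKM (interaction 0.76, adjusted p = 0.0081), *Il23r*, the IL-23 receptor, from 6.48 to 11.97 FPKM (0.74, adjusted p = 0.0016) and *Sema7a*, a membrane-anchored semaphorin, from 1.35 to 3.51 FPKM (0.81, adjusted p = 0.0085). Their M2 means were at most 0.182 FPKM, and with a pseudocount of 0.1 the adjusted p were 0.16, 0.32 and 0.36. *Ebi3*, a subunit of IL-27 and IL-35, rose in M1 from 100.5 to 141.3 FPKM and was at 32.4 and 34.1 FPKM in M2 (0.42, adjusted p = 0.027, called in 5 of the 12 fits). The anti-apoptotic genes *Bcl2a1a*, *Bcl2a1b* and *Bcl2a1d* rose in M1, with interactions of 0.80, 0.70 and 0.77 (adjusted p = 0.012, 0.012 and 0.0045). They are near-identical copies whose reads cannot be told apart, so they count as 1 observation.

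*Slc25a37*, the mitochondrial iron importer mitoferrin 1, fell in M1 from 60.4 ± 1.41 to 34.7 ± 1.85 FPKM and was at 5.355 and 4.63 FPKM in M2 (interaction -0.61, adjusted p = 0.0017). *Mif*, a cytokine, rose in M2 from 185.9 to 258.1 FPKM with an interaction of -0.49 (adjusted p = 0.041, called in 2 of the 12 fits and lost with median-of-ratios scaling at 0.062). *Hdc*, the histidine decarboxylase that is also a mast cell marker, rose in M2 from 0.582 to 1.23 FPKM (interaction -0.66, adjusted p = 0.045, called in 3 of the 12 fits), and *Hdc* itself held 70.6% of the summed mast cell markers.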
